A study of Mus musculus with 5 samples.

Results

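The 35 genes described here act in S phase, the part of the cell cycle in which the genome is copied, and were taken by symbol from a feature list in which each of the 35 occurred exactly 1 time. They belong to 6 roles: loading of the replicative helicase (Cdc6, Cdt1, Mcm2 to Mcm7), work at the fork (Gins2, Pola1, Prim1, Rpa2, Pcna, Pclaf, Rfc2, Fen1, Lig1), supply of nucleotides (Tyms, Rrm1, Rrm2, Dut), chromatin and histone supply (Chaf1b, Uhrf1, Hells, Slbp, Cdca7), repair and checkpoint (Ung, Exo1, Clspn, Rad51ap1, Tipin, Usp1), and a last group with the cyclin Ccne2, the transcription factor E2f8 and the microtubule regulator Stmn1. C57/BL6 mice received an intravenous infusion, and splenocytes were profiled 48 h later by droplet single-cell RNA sequencing. The 5 groups received saline, or live allogeneic (Balbc) splenic cells, or live isogeneic (B6) splenic cells, apoptotic allogeneic (Balbc) splenic cells and apoptotic isogeneic (B6) splenic cells. Each group was 1 library, so no difference below has a replicate check and no p-value is given; intervals are 95% and cover counting error only. CD45+ and pan-DC magnetic enrichments were re-pooled in equal parts before loading, which sets the share of each cell type, and the labels name no step that parts infused cells from host cells.

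As background, origins of replication are licensed in G1, when Cdc6 and Cdt1 load the MCM helicase, and fire in S phase, when polymerases, the sliding clamp Pcna and its partner Pclaf (also called PAF15) act at the fork. Many of these genes are transcribed at the G1 to S transition under E2F factors, so their transcripts are widely used to mark dividing cells. In the mouse spleen, erythroid precursors divide, most resting lymphocytes do not, and conventional dendritic cells are renewed in part by division of their precursors.

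Promoters are shown because E2F factors are known regulators of this group: those of Dut and Pclaf, among the members with the most UMIs, and those of Cdc6, Rrm2 and Tyms, which the comparisons of T cells and cDC2 name. Each line holds 200 bases, from 170 bases before the RefSeq start site to 30 after it (GRCm38.p6, 5′ to 3′ on the gene's strand), with capitals marking a match on either strand to TTTCCCGC, TTTGGCGC, TTTCGCGC or TTTGCCGC.
Cdc6 (chr11:98907981-98908180, plus strand): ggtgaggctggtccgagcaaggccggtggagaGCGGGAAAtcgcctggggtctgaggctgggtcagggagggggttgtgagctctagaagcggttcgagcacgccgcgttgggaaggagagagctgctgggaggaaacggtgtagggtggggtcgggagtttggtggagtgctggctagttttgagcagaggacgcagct
Dut (chr2:125247345-125247544, plus strand): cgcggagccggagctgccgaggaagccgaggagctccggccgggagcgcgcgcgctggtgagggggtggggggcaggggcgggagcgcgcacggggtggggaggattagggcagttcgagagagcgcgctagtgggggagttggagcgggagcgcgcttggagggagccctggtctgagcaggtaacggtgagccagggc
Pclaf (chr9:65890153-65890352, plus strand): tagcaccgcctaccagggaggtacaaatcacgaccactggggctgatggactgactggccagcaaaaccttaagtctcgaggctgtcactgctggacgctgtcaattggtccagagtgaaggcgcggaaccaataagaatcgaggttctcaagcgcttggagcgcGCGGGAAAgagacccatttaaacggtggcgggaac
Rrm2 (chr12:24708084-24708283, plus strand): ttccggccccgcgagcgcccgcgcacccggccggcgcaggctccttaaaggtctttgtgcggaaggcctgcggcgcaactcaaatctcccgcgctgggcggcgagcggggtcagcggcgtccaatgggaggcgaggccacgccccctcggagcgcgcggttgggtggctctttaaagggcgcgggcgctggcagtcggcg
Tyms (chr5:30073596-30073795, minus strand): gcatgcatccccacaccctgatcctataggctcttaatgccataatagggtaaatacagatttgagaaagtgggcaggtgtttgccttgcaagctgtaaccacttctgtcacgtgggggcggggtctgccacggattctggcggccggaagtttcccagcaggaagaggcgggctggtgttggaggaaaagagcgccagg
In these lines Pclaf and Cdc6 hold a match, and Dut, Tyms and Rrm2 hold none. The Dut and Cdc6 lines lie within the annotated genes, which start at chr2:125247190 and chr11:98907801. Bases before those gene starts were not searched. RefSeq promoter windows of 300 bases were at hand for 27 of the 35 members. A match occurred in 13 of these 27 genes (48.1%), against 2.61% of all 27025 genes with a window. The 13 were Cdc6, Cdca7, Cdt1, Clspn, Hells, Lig1, Mcm3, Mcm5, Mcm6, Mcm7, Pclaf, Pola1 and Uhrf1. Members named below that hold no match in this window include Pcna, Prim1, Slbp and Rpa2. CCAAT, searched on both strands, occurred in 17 of the 27 members (63.0%) and in 41.1% of all genes. A match is a description of the letters and not a measured binding site.

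The 5 libraries held 1186 to 6380 cells after filtering, 16271 in all, with median depths of 2298 to 4984.5 UMIs (unique molecular identifiers, 1 per captured transcript) per cell. Of the cell barcodes, at most 8 were shared by any pair of libraries. Cells were clustered without the members, 48 further replication genes, 33 G2 and mitosis genes and genes whose symbol starts with Hist. Member levels thus did not enter the clustering, but other cell cycle genes, among them the G1 to S regulators, were not left out. Cell division may still have shaped some classes, which was not tested. Pclaf was among the leading genes of the unnamed cluster 28. In barcodes of 1 to 100 UMIs, which hold mostly free RNA, members made up 1471 to 2394 CPM (member UMIs per 1000000 UMIs of all genes) in the 4 libraries with such barcodes. This lies above the level in several classes, so free RNA may contribute to low values, and its part in any result was not tested.

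Members were most abundant in erythroid cells, at 6632 CPM in saline, 6911 in live allogeneic, 6826 in live isogeneic, 6867 in apoptotic allogeneic and 6740 in apoptotic isogeneic. These 594 cells were 3.65% of all cells and held 50.4% of all member UMIs. The level was nearly the same in every library although the live isogeneic library had 206 of its 307 erythroid cells in a shallow cluster (cluster 27), whereas most erythroid cells of the other libraries were in cluster 19. The platelet or megakaryocyte class, which also carried progenitor markers, followed at 4766 to 6173 CPM. The upper end came from 12 live allogeneic cells, of which 5 held 79.8% of the member UMIs. Without those 5 cells it was 3158 CPM. A finer clustering (Leiden resolution 2) gave the platelet or megakaryocyte name to 39 cells, against 187 here, and named 249 cells haematopoietic progenitors. Its erythroid clusters held 270, 169 and 54 cells. Many cells of the platelet or megakaryocyte class, and some of the erythroid class, may therefore be progenitors. Type 2 conventional dendritic cells (cDC2) stood at 1466 to 3875 CPM and type 1 cells (cDC1) at 1318 to 2164 CPM. Over all libraries, the unnamed clusters 8 and 28 stood at 3047 and 2177 CPM, against 2315 CPM in cDC2. Cluster 28 ranged from 233 CPM in saline (7 member UMIs in 15 cells) to 4578 CPM in apoptotic allogeneic (11 cells). Of its 121 cells, 62 were of the live isogeneic library. B cells (670 to 936 CPM) and plasmacytoid dendritic cells (385 to 649 CPM) were low in all libraries, and neutrophils were lower still, at 214 CPM over all libraries. T cells and natural killer (NK) cells were lower in 4 libraries than in the live allogeneic library. The same held for other classes, among them mast cells or basophils. Mature dendritic cells were at 2404 CPM in live allogeneic (26 cells) against 311 to 725. Endothelial or stromal cells were at 1653 (31 cells) against 572 to 758, and red pulp macrophages at 2409 (36 cells) against 611 to 753. In these classes 5 cells held 85.8%, 69.8% and 74.4% of the live allogeneic member UMIs. Non-classical and classical monocytes, neutrophils and plasma cells were lowest in live allogeneic.

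**Figure D1:**
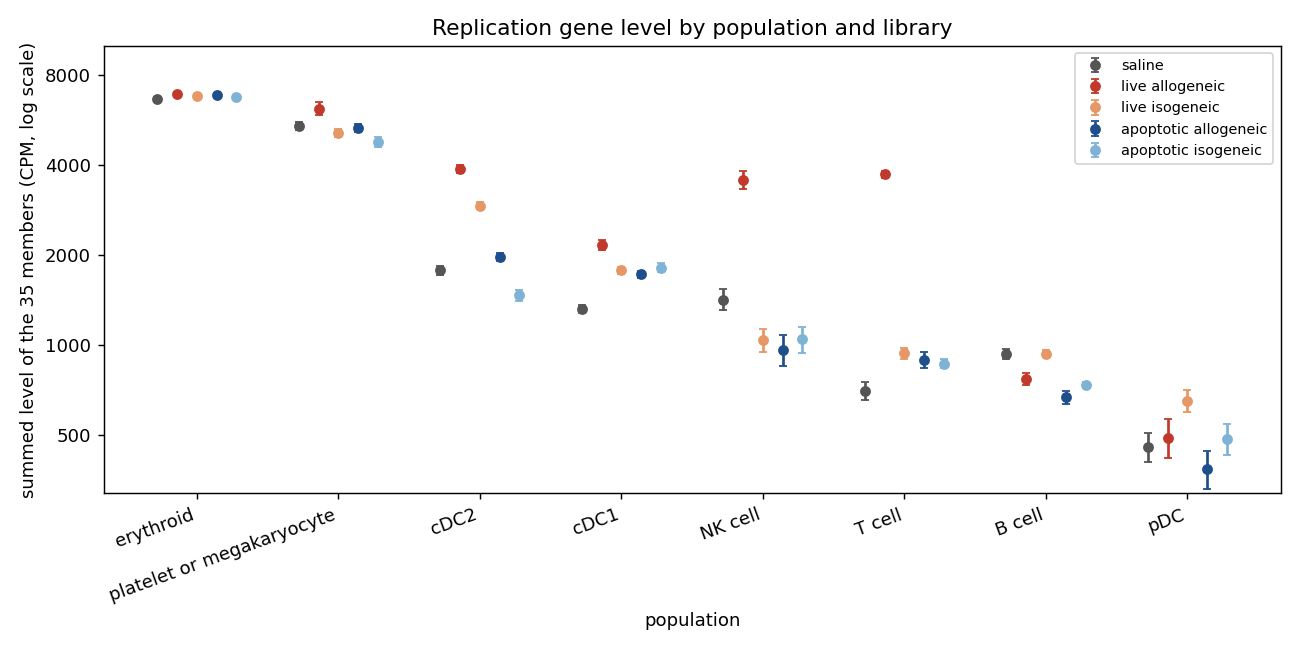
Summed level of the 35 members (CPM, log scale) in 8 populations, 1 point per library with its 95% exact Poisson interval. The erythroid points sit together between 6632 and 6911 CPM, while the live allogeneic T cell point (3724 CPM) lies above the other T cell points (703 to 938 CPM).

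Within single cells of all classes, erythroid cells included, the members were found side by side. Each cell was thinned to 1000 UMIs, and cells with at least 3 other members were compared with cells that had none. Pclaf was 126-fold more abundant in the former (84.4 to 196), Ccne2 113-fold (36.8 to 561) and Cdc6 88.3-fold (41.5 to 225). The ribonucleotide reductase subunit Rrm2 was 71.8-fold more abundant (42.4 to 131). In cells with no other member Ccne2 had 3 UMIs and Cdc6 had 7, and these intervals overlap, so the order is uncertain. The least selective were the clamp loader subunit Rfc2 (2.71-fold, 2.30 to 3.19), the deubiquitinase Usp1 (2.79-fold) and the histone mRNA binding protein Slbp (3.51-fold), which were also detected in 4.80% to 6.11% of cells with no other member. Erythroid cells held 28.5% to 38.1% of the UMIs of these last 3 genes, and 74.9% of those of Cdc6 and 67.5% of those of Rrm2. Without erythroid cells, a comparison chosen after the data were seen, Pclaf stood at 150-fold (100.3 to 235), Rrm2 at 53.8-fold, Cdc6 at 49.6-fold, Slbp at 3.04-fold, Cdt1 at 2.84-fold, Rfc2 at 2.76-fold and Usp1 at 2.48-fold (2.00 to 3.04). Stmn1 held 13.5% of all member UMIs, Dut 8.72%, Pcna 5.73%, Mcm7 4.85% and Pclaf 4.72%. Cells with 3 or more members numbered 1557, and 53.7% of them had at least 3 of 33 G2 and mitosis genes, against 0.909% of cells with 0 members. The share with 3 of those genes was 86.1% in the 554 erythroid cells among them, 51.5% in cDC2, 44.4% in cDC1, 24.5% in T cells, 16.7% in NK cells and 16.6% in B cells. They were also deeper before thinning, with a median of 8831 UMIs against 3168.

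**Figure D2:**
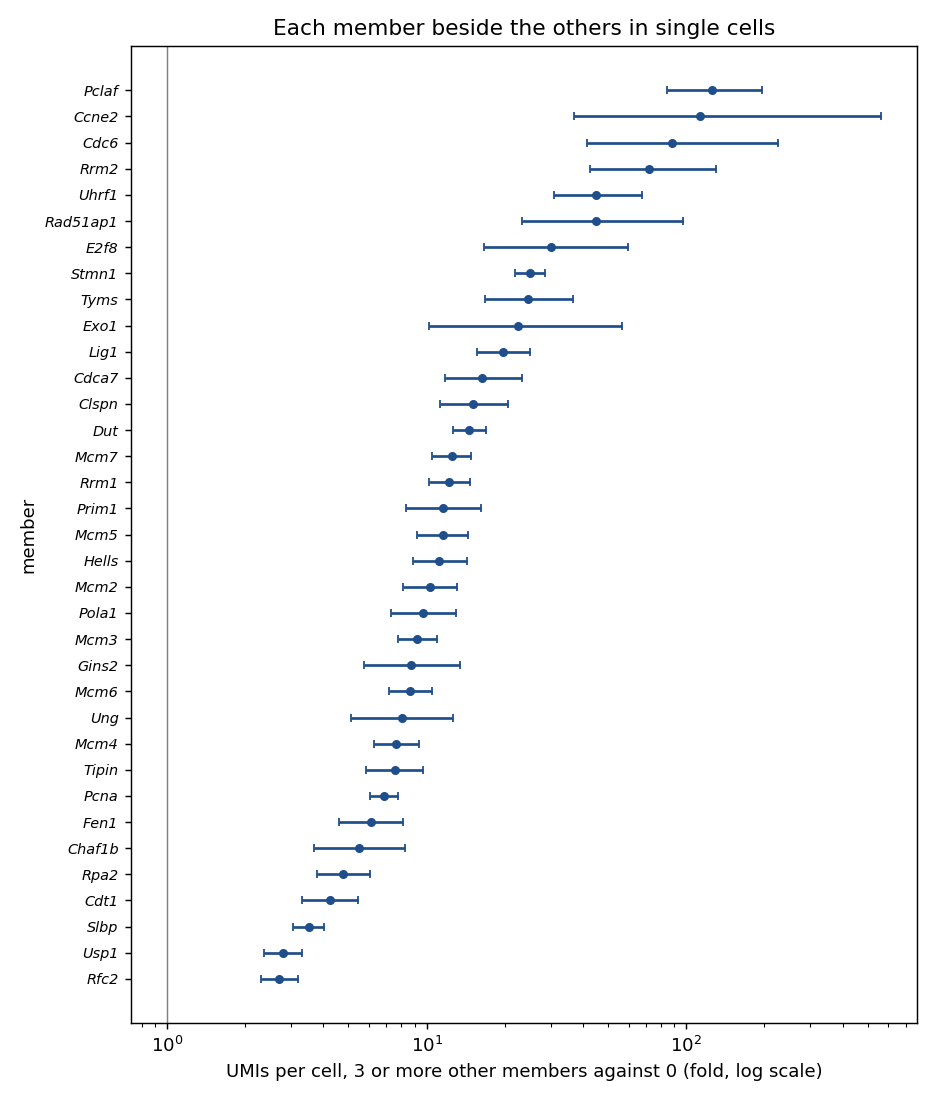
Fold of each member's UMIs per cell (log scale, cells thinned to 1000 UMIs) between cells with 3 or more other members and cells with 0, with the 95% exact interval. Pclaf is at the top (126-fold) and Rfc2 at the bottom (2.71-fold), and every interval lies above 1.

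In T cells the members were higher in the live allogeneic library than in any other. The sum was 703 CPM in saline, 3724 in live allogeneic, 938 in live isogeneic, 892 in apoptotic allogeneic and 867 in apoptotic isogeneic. Live allogeneic T cells thus stood 3.97-fold (3.78 to 4.17) above live isogeneic T cells, and 34 of 35 members were at least 1.5-fold higher and 0 lower, where 17.1% and 25.3% of all 9087 genes tested were. The remaining member, the licensing factor Cdt1, was at 34.1 against 24.8 CPM (1.37-fold, 0.929 to 2.02). The median log2 ratio of the members was 1.28, and that of all genes tested was -0.09. The fold was 2.38 when every cell was thinned to 1000 UMIs.

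Pclaf stood at 7.67 CPM in T cells of the saline library, 398 in live allogeneic, 24.4 in live isogeneic, 71.4 in apoptotic allogeneic and 31.8 in apoptotic isogeneic. The live allogeneic value was 16.3-fold (12.6 to 21.4) the live isogeneic one and lay above the other 4. Cdc6, which loads the helicase, had 52 UMIs in live allogeneic and 3 in live isogeneic T cells, a ratio of 31.6 with an interval of 10.2 to 158. Rrm2 was 11.6-fold higher and Uhrf1, which guides maintenance DNA methylation, 10.5-fold higher. The largest by UMIs was Stmn1 at 475 against 86.5 CPM (5.49-fold, 4.71 to 6.40), followed by Pclaf, Pcna and Dut. Pcna, the sliding clamp, was 2.21-fold higher (1.88 to 2.60) and Dut, which keeps uracil out of DNA, 5.62-fold higher. The smallest folds after Cdt1 were those of Usp1 (1.60), the single-strand binding subunit Rpa2 (1.72) and Mcm4 (1.87).

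By role, the T cell fold was 6.12 (5.34 to 7.04) for nucleotide supply and 5.54 for the group of Ccne2, E2f8 and Stmn1. It was 4.14 for the fork, 3.60 for chromatin, 3.07 for repair and checkpoint and 2.93 (2.66 to 3.23) for licensing. Among 48 further replication genes, 35 of the 46 measured were at least 1.5-fold higher and 0 lower, led in UMIs by the histone chaperone Nasp (2.25-fold), Atad2 (1.88-fold) and the methyltransferase Dnmt1 (1.94-fold). Of the 33 G2 and mitosis genes 32 were higher, with Mki67 at 406 against 70.2 CPM. Of the 19 measured regulators of the G1 to S step 7 were higher and 3 lower, and the inhibitor Cdkn1b was at 108 against 212 CPM (0.507-fold).

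Of 151 live allogeneic T cells, 29 (19.2%, exact binomial interval 13.3% to 26.4%) had 3 or more members after thinning, against 3.03% in saline, 4.18% in live isogeneic, 2.94% in apoptotic allogeneic and 2.61% in apoptotic isogeneic. Without thinning the share was 53.0% in live allogeneic, 28.8% in saline, 48.0% in live isogeneic, 42.9% in apoptotic allogeneic and 22.6% in apoptotic isogeneic. In neutrophils, which do not divide, 0 of 119 cells had 3 or more members (upper bound 3.05%) at a median of 1676 UMIs. In the counts before thinning, T cells with 3 or more members had a UMI of the proliferation gene Mki67 in 1 of 10 saline, 19 of 29 live allogeneic, 5 of 23 live isogeneic, 2 of 7 apoptotic allogeneic and 8 of 37 apoptotic isogeneic cells. In T cells with fewer members it was found in 7 of 320, 4 of 122, 22 of 527, 2 of 231 and 17 of 1379 cells in the same order of libraries; depth differs between these sets of cells and its part was not tested. The 29 live allogeneic cells, chosen by their member count, held 92.5% of the class's member UMIs and had a median depth of 20414 UMIs. Of the 29 cells, 17 were in cluster 15, led by Ikzf2, Foxp3, Il2ra and Ctla4, although 4 of the 29 had a Foxp3 UMI, 11 a Cd4 UMI and 11 a Cd8a UMI (genes chosen after their values were seen). Cluster 20 held the most live allogeneic T cells (55) and cluster 7 the most live isogeneic ones (230). In cluster 15 the member sum was 6224 CPM in live allogeneic, 1072 in saline, 1188 in live isogeneic, 2872 in apoptotic allogeneic and 2706 in apoptotic isogeneic. The other T cell clusters with cells in both live libraries stood at 911 against 661 CPM (cluster 7), 1019 against 695 CPM (cluster 20) and 1594 against 1534 CPM (cluster 21) in live allogeneic against live isogeneic. Erythroid markers in T cells summed to 7.65 CPM in live allogeneic and 107 CPM in live isogeneic.

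**Figure D3:**
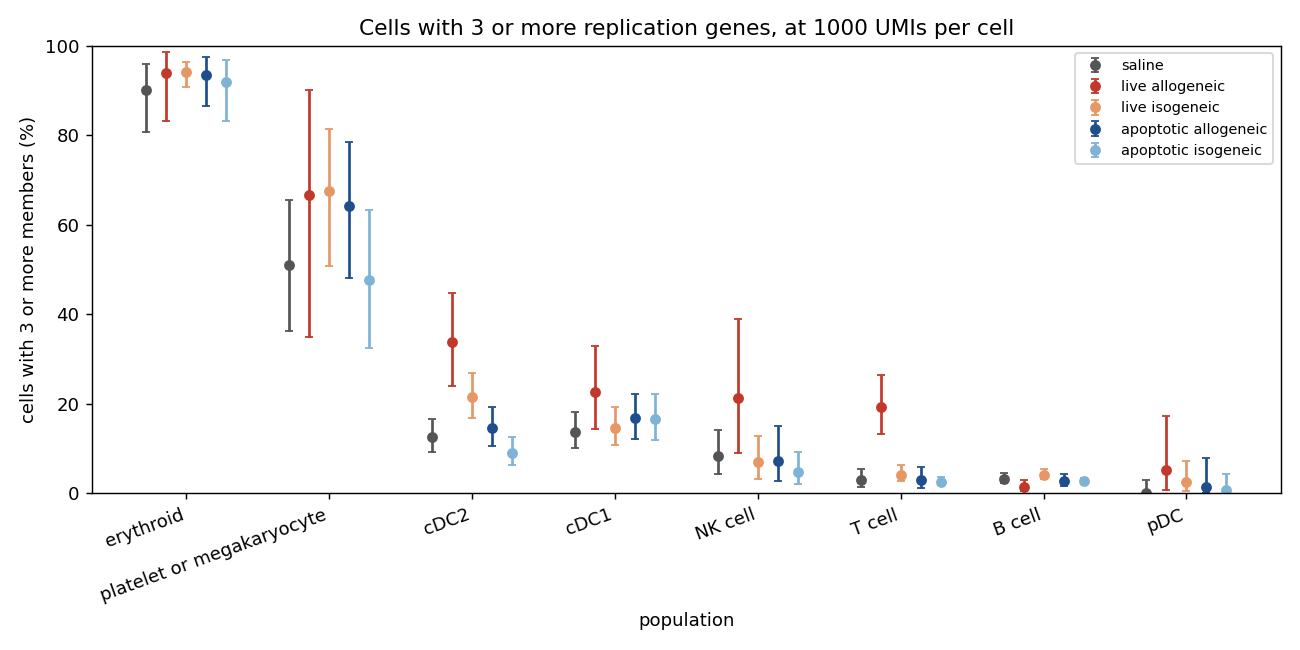
Percent of cells with 3 or more distinct members after thinning to 1000 UMIs, by population and library, with 95% exact binomial intervals. In T cells the live allogeneic library is at 19.2% and the other 4 lie between 2.61% and 4.18%.

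**Figure D4:**
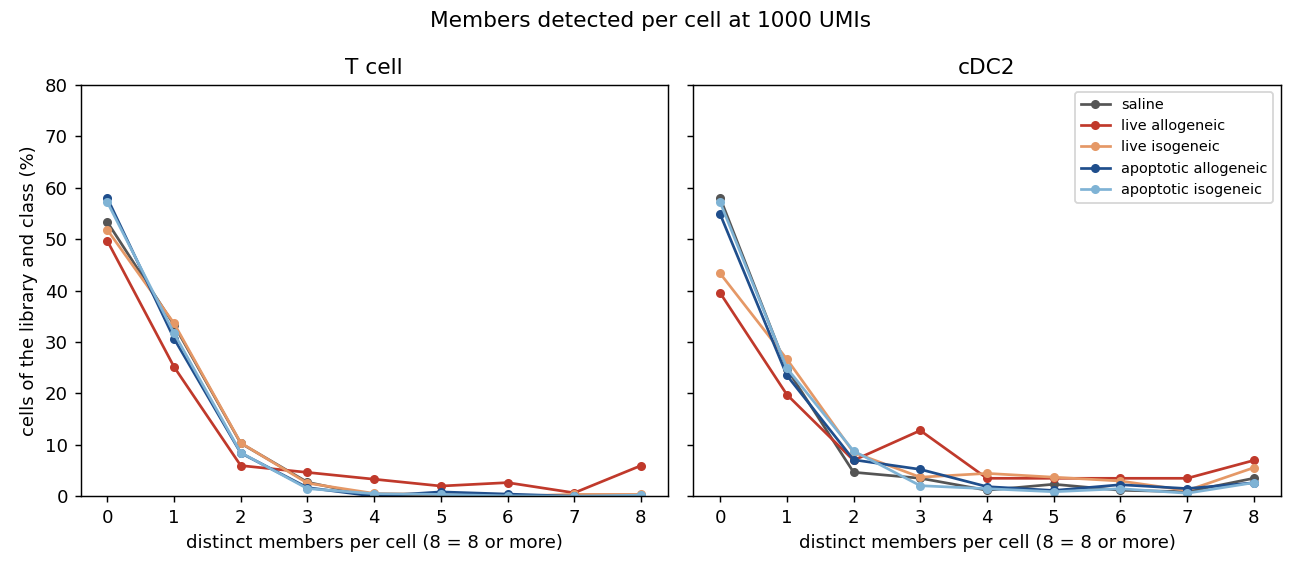
Percent of T cells and cDC2 by the number of distinct members detected at 1000 UMIs (8 stands for 8 or more), 1 line per library. The live allogeneic T cell line runs below the others at 1 and 2 members and above them at 8 or more.

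NK cells gave 3564 CPM in the live allogeneic library against 1418 in saline, 1040 in live isogeneic, 963 in apoptotic allogeneic and 1045 in apoptotic isogeneic. The live allogeneic level was 3.43-fold (3.06 to 3.84) the live isogeneic one, but it came from 33 cells, of which 5 held 78.4% of the member UMIs. Without the 5 cells with the most member UMIs in each library the fold was 1.41, and at 1000 UMIs per cell it was 1.98.

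In cDC2, which here is cluster 2 alone, members were higher after both live infusions than after saline. The sum was 1780 CPM in saline, 3875 in live allogeneic, 2926 in live isogeneic, 1972 in apoptotic allogeneic and 1466 in apoptotic isogeneic. Relative to saline, the live isogeneic level was 1.64-fold (1.58 to 1.72) and the live allogeneic level 2.18-fold (2.08 to 2.28), and both ratios share the saline library. In each of these comparisons 25 of 35 members were at least 1.5-fold higher and 0 lower. Of all genes tested, 12.3% were higher and 8.89% lower in the live isogeneic comparison, and 14% and 16.6% in the live allogeneic one. The share of cells with 3 or more members was 12.5%, 33.7%, 21.5%, 14.6% and 9.09% in the order above, and the live allogeneic (23.9% to 44.7%) and live isogeneic (16.7% to 26.9%) intervals overlapped. The unnamed cluster 1, led by Cd209a, is not in this class, although it met 7 of 14 cDC2 markers. Relative to saline its live isogeneic level was 1.09-fold (0.961 to 1.23). Its live allogeneic level was 2.97-fold (2.66 to 3.33), with 72.4% of the member UMIs in 5 cells. The unnamed cluster 28 is not in this class either. It met 3 of 14 cDC2 markers, and its leading genes Ppp1r14a, S100a4 and Bex6 also lead cluster 2. It stood at 233 CPM in saline (15 cells), 2680 in live allogeneic (14 cells) and 2322 in live isogeneic (62 cells). In apoptotic allogeneic it stood at 4578 CPM (11 cells) and in apoptotic isogeneic at 1828 (19 cells). The part of cluster 28 in the cDC2 levels and ratios was not tested.

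Live allogeneic against live isogeneic cDC2 gave a fold of 1.32 (1.27 to 1.38) that differed by role. At least 1.5-fold higher were 9 of 35 members and lower were 2, where 11.5% and 15.4% of all genes tested were; with median of ratios scaling 4 were higher. Thymidylate synthase, Tyms, was at 115 against 53.1 CPM (2.17-fold, 1.66 to 2.83), Stmn1 at 899 against 437 CPM (2.06-fold), Pclaf at 539 against 299 CPM (1.80-fold) and the primase subunit Prim1 at 56.4 against 31.6 CPM (1.79-fold). The lowest were Cdca7 (0.546-fold, 0.307 to 0.923), Mcm4 (0.624-fold, 0.457 to 0.840), Mcm3 (0.787-fold) and Cdc6 (0.804-fold, 0.450 to 1.38). Licensing genes summed to 0.903-fold (0.818 to 0.995) and chromatin genes to 0.937-fold (0.815 to 1.08), whereas nucleotide supply stood at 1.52-fold (1.35 to 1.70) and the group with Stmn1 at 1.99-fold. The G2 and mitosis list was 2.03-fold (1.97 to 2.09), with 31 of 33 genes higher, among them Hmgb2 (1.70-fold), Top2a (2.35-fold) and Mki67 (1.57-fold). Among the 46 measured further replication genes 9 were higher and 5 lower. Classical monocyte markers in cDC2 summed to 4340 CPM in live allogeneic and 3409 in live isogeneic, with Ly6c2, Chil3, F13a1 and Vcan at 0 in the former, and their part in the result was not tested.

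Apoptotic allogeneic against apoptotic isogeneic cDC2 gave a fold of 1.34 (1.27 to 1.42). At least 1.5-fold higher were 9 of 35 members and lower were 0, where 7.19% and 6.34% of all genes tested were. Ccne2 was at 17.1 against 5.48 CPM (3.12-fold, 1.41 to 7.87), Slbp at 107 against 53.4 CPM (2.01-fold, 1.53 to 2.64), Chaf1b at 15.5 against 8.22 CPM and Prim1 at 23.8 against 13.7 CPM. Chromatin genes were 1.69-fold and licensing genes 1.34-fold (1.19 to 1.51), and the G2 and mitosis list was 1.12-fold. The apoptotic isogeneic level was itself 0.824-fold (0.780 to 0.870) the saline level. The live and apoptotic ratios use no library in common, and the difference between them was not tested.

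**Figure D5:**
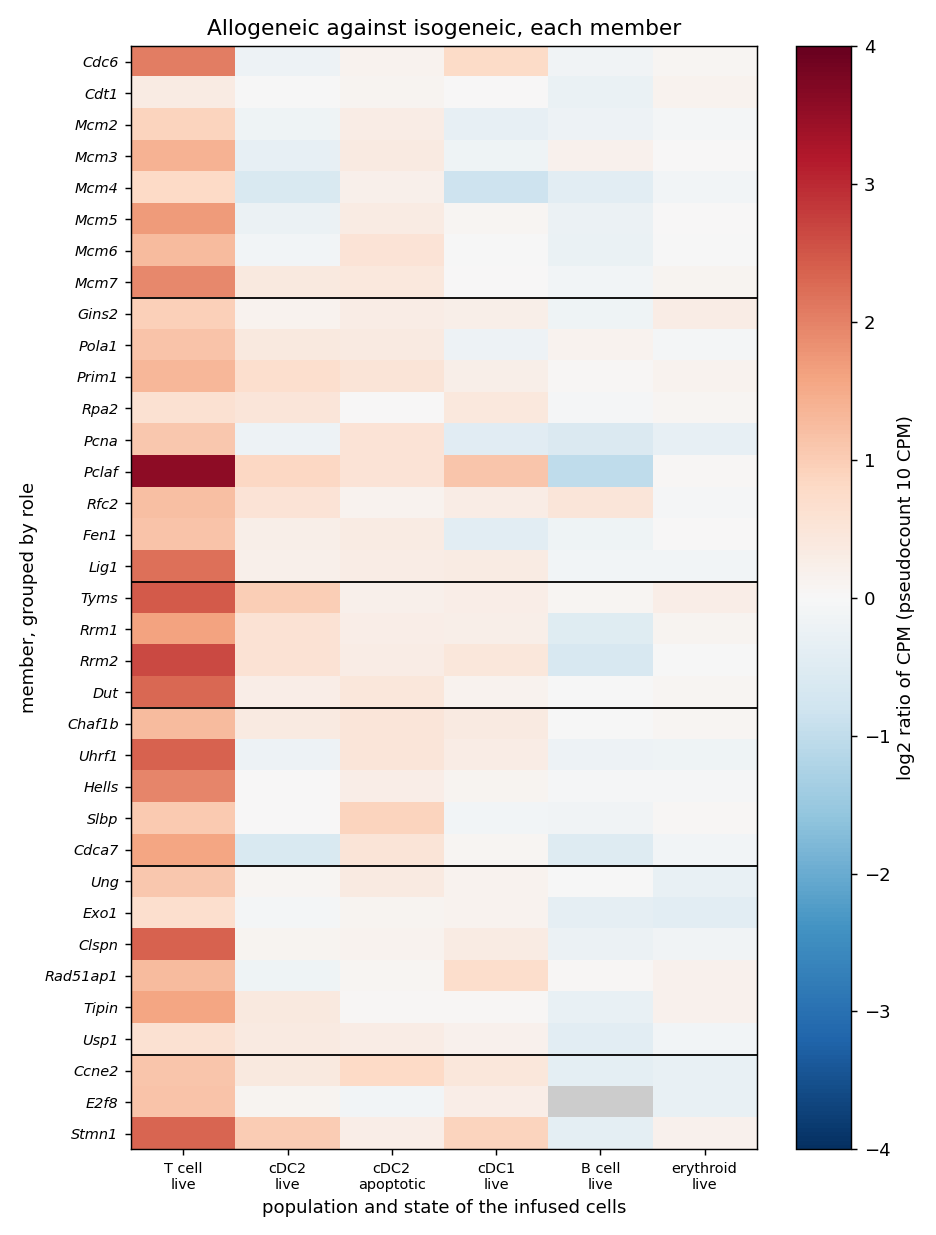
Log2 ratio of CPM (pseudocount 10 CPM) of each member, allogeneic against isogeneic, in 6 comparisons, with lines between roles and grey where a member had under 20 UMIs. The T cell column is positive throughout, the cDC2 live column is negative for most Mcm genes and positive for Tyms, Pclaf and Stmn1, and the erythroid column is near 0.

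In cDC1 the members stood at 1318 CPM in saline, 2164 in live allogeneic, 1780 in live isogeneic, 1726 in apoptotic allogeneic and 1818 in apoptotic isogeneic. The class is made of a pair of clusters that ordered the libraries differently. In cluster 14 saline was at 1269 CPM and the other 4 libraries at 1794 to 2192 CPM, whereas in cluster 17 saline was at 2119 CPM and the others at 988 to 1936 CPM. With cells thinned to 1000 UMIs, saline held 1.27 member UMIs per cell (1.14 to 1.40) and live isogeneic 1.27 (1.15 to 1.41). The live ratio was 1.22 (1.16 to 1.27) with 8 members higher and 1 lower, where 10.2% and 10.4% of all genes tested were, and it was 1.00 (0.949 to 1.06) without the 5 cells with the most member UMIs in each library. Pclaf was 2.24-fold higher (1.91 to 2.63) and Mcm4 was 0.501-fold (0.346 to 0.711). The apoptotic ratio was 0.950 (0.908 to 0.993).

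T cells of the apoptotic libraries had a member ratio of 1.03 (0.957 to 1.10), while the G2 and mitosis list was 1.92-fold (1.81 to 2.03) with 24 of 27 measured genes higher. Pclaf was the member with the highest ratio, 2.25 (1.68 to 2.99). Among the members, 3 were higher and 5 lower of 30 measured, where 7.05% and 10.2% of all genes tested were. Of the 238 apoptotic allogeneic T cells, 5 held 40.5% of the member UMIs, and 7 had 3 or more members. How far the G2 and mitosis ratio rests on such few cells was not tested.

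In B cells the live ratio was 0.822 (0.778 to 0.869), with 0 members higher and 9 lower of 34 measured, where 5.21% and 22.1% of all genes tested were. The median log2 ratio of the members was -0.18, close to that of all genes tested, -0.15. Pclaf was at 16.1 against 43.2 CPM (0.373-fold, 0.256 to 0.531) and Rfc2 at 81.1 against 55.1 CPM (1.47-fold). The libraries differed in makeup: 215 of 480 live allogeneic B cells were in cluster 5, led by interferon-induced genes such as Ifit3, against 27 of 1379 live isogeneic B cells. Within clusters, live allogeneic against live isogeneic stood at 524 against 676 CPM (cluster 4), 993 against 1528 CPM (cluster 6), 620 against 716 CPM (cluster 9), 502 against 1016 CPM (cluster 10) and 770 against 757 CPM (cluster 5). A finer clustering gave 1.01 over a class of other cells. It left unnamed a cluster of 992 cells led by Vpreb3. The unnamed cluster led by Egr3 and Nfkbid then held 474 cells, against 315 in cluster 8. A cluster of 204 cells, with Mzb1, Pclaf and Cenpf among its leading genes, was also unnamed. Which of these clusters moved the ratio was not tested. Erythroid ratios were 1.01 (0.993 to 1.03) for the live and 1.02 (0.997 to 1.04) for the apoptotic comparison, with 0 of 35 members past 1.5-fold in either direction in both. Of all genes tested, 4.08% were higher and 13.2% lower in the live comparison, and 5.47% and 5.37% in the apoptotic one.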

How the data were processed

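Spleen cells of 5 libraries were profiled with the 10x 3′ v3.1 chemistry. The deposited matrices hold UMI counts per gene and barcode, not normalized, and the submitters' processing notes name Cell Ranger 4.0 and mm10. A barcode was kept if it held 1000 UMIs or more and 500 genes or more, with mitochondrial UMIs not above 10%. Doublets were not removed: Scrublet marked under 0.5% of cells in 4 libraries and 1.83% in apoptotic isogeneic, and leaving these cells out is an alternative. Cells were clustered with scanpy 1.11.5 (2000 variable genes, 30 components, Leiden resolution 1), and clusters were named from marker lists where at least 3 markers and 25% of the list led; clusters 1, 8 and 28 stayed unnamed. Counts were summed by class and library and given as CPM with exact Poisson intervals; ratios have exact conditional Poisson intervals. Classes were compared with at least 30 cells and 50000 UMIs in both libraries, genes with at least 20 UMIs in both sums together. The ratio functions were tested on simulated data. Named members are the 4 highest, the 4 lowest and the 4 with most UMIs in a comparison, and 3 genes by UMIs of other lists. No test between groups was possible, each group being 1 library. Members and lists were chosen with earlier results of these data known.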

Additional observations from a re-analysis of the deposited data

Results flagged for a closer look

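Under the same contrast the member sum was higher in some populations and lower in others, and with 1 library per group the difference between populations was not tested. Live allogeneic against live isogeneic gave ratios above 1 in T cells (3.97), red pulp macrophages (3.93, where 6 members passed the minimum), NK cells (3.43), the unnamed cluster 1 (Cd209a), at 2.73, cDC2 (1.32) and cDC1 (1.22). Of the live allogeneic member UMIs, 5 cells held 72.4% in cluster 1 and 74.4% in macrophages, and classical monocyte markers in cluster 1 summed to 12112 CPM against 7497 in live isogeneic; their part was not tested. Without the 5 cells with the most member UMIs in each library, the ratio was 1.56 in cluster 1, 2.28 in macrophages, 1.41 in NK cells and 1.00 in cDC1. The contrast gave ratios below 1 in B cells (0.822), plasmacytoid dendritic cells (0.753) and the unnamed cluster 8 led by Nfkbid and Egr3 (0.655); without those 5 cells it was 0.908 (0.739 to 1.11) in plasmacytoid dendritic cells and 0.468 in cluster 8. Apoptotic allogeneic against apoptotic isogeneic gave ratios above 1 in cDC2 (1.34) and the platelet or megakaryocyte class (1.11), and below 1 in cDC1 (0.950), B cells (0.910), plasmacytoid dendritic cells (0.793) and endothelial or stromal cells (0.755).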

How the results depend on the processing

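No paired analysis was possible because each group is 1 library and the groups share fewer than 2 replicate numbers; leaving out a replicate is likewise not possible. Of 35 ratios of the member sum, 27 had an interval off 1 and 5 of those changed sign under some alternative. The cause was not tested. With cells thinned to 1000 UMIs, 13 of the 35 stayed within their main interval, 19 moved out of it and 3 of the 27 changed sign. The live allogeneic against live isogeneic ratio in T cells was 3.65 with totals free of mitochondrial, haemoglobin, immunoglobulin and rRNA-overlapping genes, 2.38 at 1000 UMIs per cell and 3.53 without the 5 cells with the most member UMIs in each library, an alternative chosen after seeing the data. In NK cells it was 2.84 with median of ratios scaling, 1.98 thinned, 2.98 without Stmn1 and 1.41 without the 5 cells. In cDC2 it was 1.25 with median of ratios scaling, 1.26 with reduced totals, 1.20 without Stmn1 and 1.18 without the 5 cells, and 4 members in place of 9 were higher with median of ratios scaling. In cDC1 it was 1.13 both with median of ratios scaling and without Stmn1, 1.53 thinned, 1.09 at 5% mitochondrial UMIs and 1.00 without the 5 cells. In B cells it was 0.917 with median of ratios scaling, 0.764 with reduced totals, 0.719 thinned, 0.767 at 5% mitochondrial UMIs, 0.742 without the 5 cells and 1.01 at Leiden resolution 2, where the class holds other cells. The apoptotic ratio at that resolution was 1.01 in B cells; it was 1.23 in cDC2 and 1.13 in plasmacytoid dendritic cells when thinned, and 0.811 in T cells without the 5 cells. Against saline, T cells were at 0.954 (apoptotic allogeneic) and 0.936 (apoptotic isogeneic) when thinned, and apoptotic allogeneic T cells at 0.919 without the 5 cells. With 4 members required, 20.9% of live allogeneic cDC2 counted. Scrublet marked too few cells for leaving them out to bear on doublets, which may remain.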
